A study of Mus musculus with 6 samples.

Results

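Mouse peritoneal macrophages treated with either of 2 Toll-like receptor ligands were compared, as one group, with untreated macrophages, to describe the genes that both ligands moved by about the same amount. A gene counted as moved alike when its values on all 4 treated arrays lay beyond both control arrays and the means of the 2 ligands lay within 0.5 of each other on the log2 scale. Of 19935 genes tested, 5258 (26.4%) met this rule. In the treated cells 2142 of them (10.7% of the genes tested) were higher and 3116 (15.6%) were lower. These counts come from the same differences that are reported, and are given as a description.

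The series holds 6 expression arrays of total RNA from cultured peritoneal macrophages of C57BL/6 mice, with 2 arrays in each of 3 groups. One group was left untreated, one received poly I:C at 2 ug/mL for 24 h and one received PAM at 1 ug/mL for 24 h; the labels give no time for the control cells. The compound behind PAM is spelled PAMCSK3 for PAM array 1 and PAMCSK4 for PAM array 2. The series was set up to find genes that TLR3 and TLR2 activation move in opposite directions, and the genes moved alike are the other side of that comparison. The labels do not say whether the 2 arrays of a group came from separate mice or cultures, and the spread behind each p-value is the spread of these arrays, which may be technical. Every difference from control rests on the same 2 control arrays, so a response to both ligands and a shift of the control arrays themselves cannot be told apart.

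Poly I:C is a synthetic double-stranded RNA, the ligand of the endosomal receptor TLR3, which signals through the adaptor TRIF (Ticam1). The lipopeptides known by the PAM abbreviation are ligands of TLR2, a receptor of the cell surface that pairs with TLR1 or TLR6 and signals through MyD88. Both routes reach the transcription factor NF-kB and the MAP kinases, and the TRIF route also switches on interferon genes.

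Each deposited value is a log2 array value from which the median of that probe over the 6 arrays had been subtracted. The values therefore show differences between arrays but no level, so no gene can be ranked against another by abundance and the cell type cannot be checked by the level of its markers. In RNA from whole cultures, fewer cells of a type and less RNA per cell cannot be told apart. The median difference between the 2 arrays of a group was 0.091 for control, 0.0724 for poly I:C and 0.069 for PAM (log2, absolute).

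With limma and a Benjamini-Hochberg adjusted p under 0.05 for the mean of the 4 treated arrays minus the mean of the 2 control arrays, 366 genes (1.84%) rose and 840 (4.21%) fell, 1206 (6.05%) in all. Of these, 1084 had moved alike, 296 higher (1.48% of the genes tested) and 788 lower (3.95%). This fit treats a difference between the ligands as error, so it favours genes that moved alike. Most genes moved alike had moved little: 1877 of the 2142 higher genes (87.6%) and 2440 of the 3116 lower genes (78.3%) differed from control by less than 0.5. A total of 210 genes moved alike, passed the threshold and differed at least 2-fold. There were 63 higher (0.316% of the genes tested) and 147 lower (0.737%), and they are called the strong shared genes from here on. Their number depended on the control arrays. Without control array 1, 74 genes rose and 176 fell at the threshold. The counts were 72 and 118 without control array 2, and stood at 226 to 265 and 478 to 594 without one of the 4 treated arrays. The strong shared genes then numbered 141 without control array 1 and 115 without control array 2, of which 129 and 113 were among the 210, with the call rule unchanged. With 1 control array left, that array is assumed to vary as the treated arrays do.

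**Figure D1:**
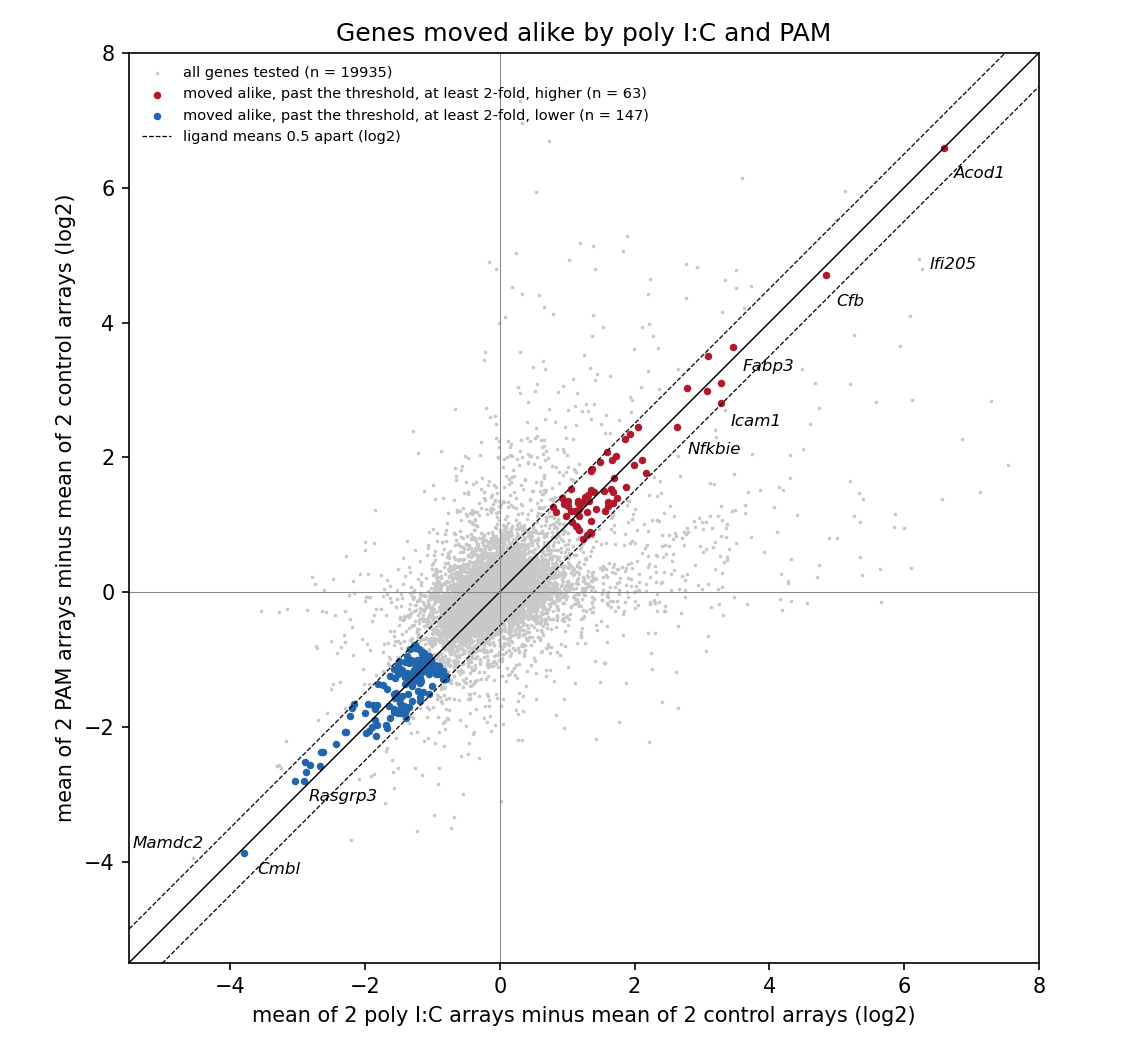
Each point is 1 of 19935 genes, with the poly I:C minus control difference (log2) on the horizontal axis and the PAM minus control difference (log2) on the vertical axis, both against the same 2 control arrays. The dashed lines mark ligand means 0.5 apart; the 63 higher (red) and 147 lower (blue) strong shared genes lie between them, from Cmbl at the lower left to Acod1 at the upper right.

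Large decreases were shared by the ligands in a greater share than large increases. Of 407 genes at least 2-fold higher with groups that did not overlap, 64 (15.7%) had ligand means within 0.5. Of 297 genes at least 2-fold lower, 147 (49.5%) did. The median absolute difference between the ligands was 1.52 among those 407 genes and 0.519 among those 297, against 0.113 over all genes. From 0.5 to 3 (log2) the lower genes had the larger share at each size. Between 1 and 1.5 (log2) 22.4% of the higher and 51.6% of the lower genes had moved alike, and between 1.5 and 2 the shares were 14.7% and 49.3%. Between 2 and 3 they were 7.14% of 84 higher genes and 38.9% of 36 lower genes. With a limit that grows with the change, ligand means no further apart than 25% of the mean difference, the shares were 14.3% and 38.7%. Genes are not independent replicates, so no test of the 2 shares was made.

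**Figure D2:**
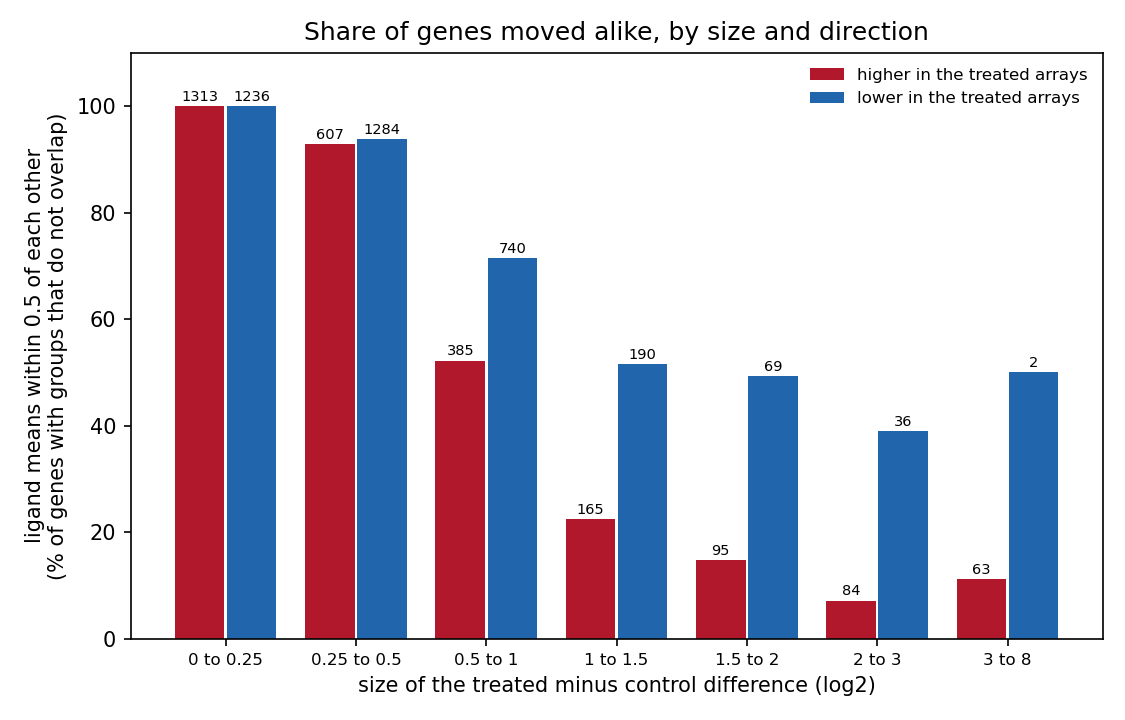
Bars give the percent of genes, among those whose treated and control arrays do not overlap, whose ligand means lie within 0.5 (log2) of each other, by size of the difference (log2, horizontal axis) and direction; the number above each bar is the number of genes in it. From 0.5 upward the blue bars (lower in treated cells) stand above the red bars (higher), for example 51.6% against 22.4% between 1 and 1.5; the last pair rests on 2 lower genes.

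The strong shared genes were chosen for ligand means within 0.5, so close values of the 2 ligands follow from the rule and the next counts are a description. The median difference from control among the 63 higher genes was 1.37 for poly I:C and 1.39 for PAM, and among the 147 lower genes it was -1.30 and -1.27. The change was larger with poly I:C for 29 of the higher and 79 of the lower genes, and larger with PAM for 34 and 68. For 38 of the 63 and 97 of the 147, the 95% interval of the difference between the ligands lay within 0.5 on either side of 0, the same limit that chose the genes. A difference between the ligands still passed the threshold in 29 of the 63 and 51 of the 147, so moving alike within the limit does not mean that the ligands gave equal values. Over all genes, 5725 (28.7%) differed between the ligands (limma, adjusted p under 0.05). At the edge of the limit, Pcyt1a (0.496), Kcnj2 (0.494) and Nfkb2 (0.493) were just inside, and Slc25a33 (0.502), Aoah (0.511) and Slfn2 (0.511) just outside, as absolute differences between the ligand means.

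The largest shared increase was Acod1, which encodes the mitochondrial enzyme that makes the antimicrobial metabolite itaconate from cis-aconitate. Its array values were -6.56 and -6.59 in control, -0.0049 and 0.05 with poly I:C, and 0.0049 and 0.05 with PAM. The 4 treated arrays were nearly level and far above both control arrays. Acod1 rose by 6.60 ± 0.05 (log2, SE, n = 4 treated against 2 control arrays; limma adjusted p = 4.8e-07), 96.8-fold. The difference between the ligands was -0.0009, with a 95% interval from -0.15 to 0.15. A fit with the variance as a trend over mean values, which are centred here, ended the calls of Acod1 and of 3 other genes described below, Cfb, Fabp3 and Cmbl (highest adjusted p 0.999 among named genes). Of 12 measured genes for itaconate, nitric oxide and arginine metabolism, 3 moved alike higher (25%, against 10.7% of all genes). Among them the arginine importer gene Slc7a1 rose by 0.76 ± 0.11 (limma adjusted p = 0.0184), a call that ended without control array 1 (0.128) or control array 2 (0.179).

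The complement protease factor B, Cfb, was second. Its array values were -4.15 and -5.26 in control, 0.11 and 0.16 with poly I:C, and 0.01 and -0.01 with PAM. The control arrays stood apart from each other but both lay far below the treated arrays, and Cfb rose by 4.77 ± 0.29 (limma adjusted p = 0.00144). The C1 inhibitor gene Serping1 rose by 1.71 ± 0.20 (adjusted p = 0.00942; 0.103 without control array 2) and the C1r protease gene C1ra by 1.05 ± 0.07 (adjusted p = 0.00185), also limma. Of 15 measured genes of complement and its receptors, 3 moved alike higher (20%, against 10.7% of all genes) and 3 lower (20%, against 15.6%). Properdin (Cfp), which stabilises the alternative pathway convertase that contains factor B, fell by 0.79 ± 0.09, and Cd55, which takes that convertase apart, fell by 0.51 ± 0.05 (limma adjusted p = 0.00712 and 0.00646). Both of these calls ended without either control array, with adjusted p of 0.0811 and 0.0933 for Cfp and 0.0686 and 0.0819 for Cd55.

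**Figure D3:**
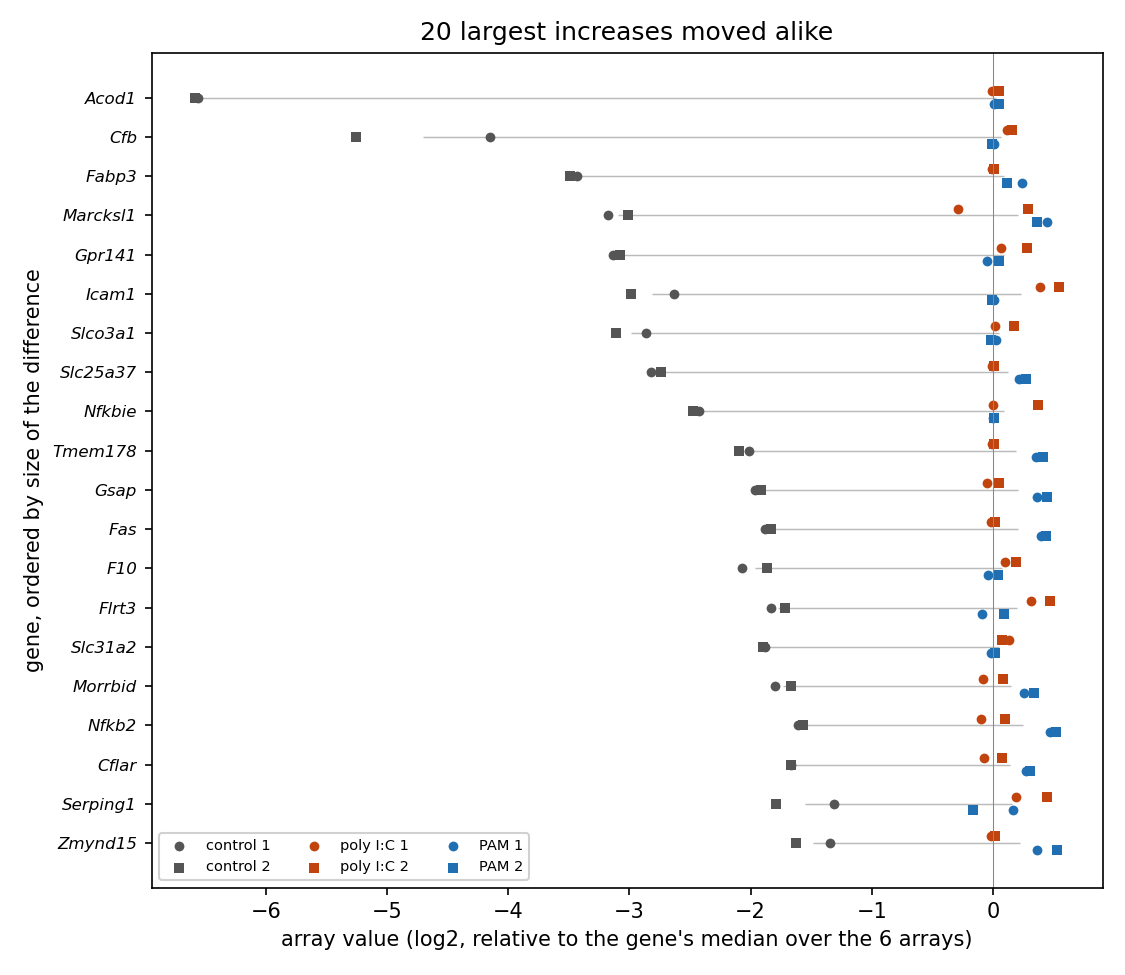
Array values (log2, relative to each gene's median over the 6 arrays, horizontal axis) of the 20 genes with the largest increase among those moved alike and past the threshold, 1 gene per row, with circles for replicate 1 and squares for replicate 2 of control (grey), poly I:C (red) and PAM (blue). In every row the 2 control arrays lie to the left of all 4 treated arrays; the grey line joins the control mean to the mean of the 4 treated arrays, from 6.60 apart for Acod1 to 1.71 for Zmynd15.

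The NF-kB genes held the largest share of members moved alike upward among the lists with over 10 measured genes. NF-kB is kept in the cytoplasm by inhibitor proteins and by the unprocessed precursor of its own p52 subunit. Some of the genes for these proteins are themselves NF-kB targets. Of 21 measured subunits and regulators, all 21 had a positive difference and 11 moved alike higher (52.4%, against 10.7% of all genes). Past the threshold 13 rose (1.84% of all genes did). The median difference was 1.29, against 0.00 over all genes. The count of 13 was 3 without control array 1 and 3 without control array 2, where 15 and 16 members had an unadjusted p under 0.05, and it was 9 without PAM array 1 or PAM array 2. The largest differences on the list, of Traf1 and Nfkbia (IkB alpha), were not shared to within 0.5: Traf1 was higher by 2.64 with poly I:C and 3.31 with PAM, and Nfkbia by 2.10 and 3.05. Their limma adjusted p for all treated arrays against control were 0.00322 and 0.0139, and 0.0518 to 0.147 without control array 1 or 2.

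The inhibitor gene Nfkbie (IkB epsilon) had array values of -2.43 and -2.47 in control, 0.0017 and 0.37 with poly I:C, and -0.0017 and 0.0043 with PAM. Poly I:C array 2 lay above the other 3 treated arrays, and all 4 lay above control. Nfkbie rose by 2.54 ± 0.12 (limma adjusted p = 0.000949). Nfkb2, the gene of the p100 precursor of p52, had array values of -1.61 and -1.57 in control, -0.10 and 0.10 with poly I:C, and 0.47 and 0.52 with PAM. Its groups did not overlap either, PAM was the higher ligand, and the difference from control was 1.83 ± 0.19 (limma adjusted p = 0.00616; 0.0781 and 0.0881 without control array 1 or 2). Nfkbib (IkB beta) rose by 1.47 ± 0.12 (limma adjusted p = 0.00244), 1.61 with poly I:C and 1.33 with PAM. Relb, the usual partner of p52, rose by 1.38 ± 0.14 and the atypical IkB gene Bcl3 by 1.29 ± 0.18 (limma adjusted p = 0.0061 and 0.015). Both calls ended without control array 1 or 2, with adjusted p of 0.0775 and 0.0794 for Relb and 0.135 and 0.145 for Bcl3. Rela, the p65 subunit, moved alike but did not pass the threshold, with differences of 0.70 with poly I:C and 0.42 with PAM (limma adjusted p = 0.0631). Traf1, Nfkbia, Relb, Bcl3 and Rela were chosen after their values were seen, as were the other genes named below without a place among the 20 largest changes or the leading members of a list.

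Because some NF-kB genes are known targets of their own factor, the promoters of all strong shared genes were searched for its motif. RefSeq windows of 300 bases, from 250 before to 50 after the transcript start (assembly GRCm38.p6), were found for 49 of the 63 higher and 112 of the 147 lower strong shared genes. Only 1 form of the kappaB motif, GGGANTTTC (either strand), was searched, so windows with other forms are not counted. The form searched was in 2 of 58 windows of the higher genes (3.45%), both of Nfkb2 and with 1 match in common. It was in 0 of 154 windows of the lower genes. Of 19175 windows of the genes tested 1.08% held it, and of 32851 windows of all genes 1.11%. The Nfkb2 window on the plus strand, chr19:46305445-46305744, is shown because it holds the motif at base 69 (reverse strand) and at base 261, both in capitals.
Nfkb2: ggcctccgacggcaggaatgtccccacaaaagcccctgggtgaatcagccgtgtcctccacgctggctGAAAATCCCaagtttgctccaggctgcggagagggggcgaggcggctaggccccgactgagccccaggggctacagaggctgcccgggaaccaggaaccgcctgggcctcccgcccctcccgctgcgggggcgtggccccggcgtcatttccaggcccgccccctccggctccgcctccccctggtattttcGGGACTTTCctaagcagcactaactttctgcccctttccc
The AP-1 motif TGANTCA, which reads the same on both strands, was in 8 of the 58 windows of higher genes (13.8%). For the lower genes it was in 7 of the 154 windows (4.55%). Of windows of the genes tested 6.89% held it, and of all windows 7.81%. By gene it was in 7 of 49 higher, 7 of 112 lower and 1261 of 15612 tested genes. The higher genes with the motif were Tank, Morrbid, Mgst2, Aqp9, Nfkbie, Fas and Nfkb2, and the windows of Tank had 1 match in common. The Nfkbie window, chr17:45555450-45555749 on the plus strand, is shown as the one with the largest increase among these genes, with the AP-1 motif in capitals at base 95.
Nfkbie: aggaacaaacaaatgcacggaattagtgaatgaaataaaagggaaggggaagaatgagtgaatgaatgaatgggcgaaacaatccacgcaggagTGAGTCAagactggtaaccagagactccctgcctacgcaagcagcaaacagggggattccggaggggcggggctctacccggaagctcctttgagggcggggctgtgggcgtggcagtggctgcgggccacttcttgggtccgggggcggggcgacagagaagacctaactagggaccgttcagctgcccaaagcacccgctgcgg
A core of the interferon response element, TTCNNTTTC (either strand), was in 3 of 58 windows (5.17%), 13 of 154 (8.44%), 7.84% of those of the genes tested and 8.56% of all windows. A match is a run of letters and not a measured binding site, and windows of different genes differ in base composition: the median number of CG dinucleotides was 13.5 in the higher genes' windows, 13 in the lower genes', 15 in those of all genes tested and 7 over all windows. The kappaB and interferon motifs end in the same letters, TTTC. No match says only that the letters are not in that window.

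Several of the other large increases encode surface, transport and survival proteins. Icam1, the adhesion molecule bound by leukocyte integrins, had array values of -2.64 and -2.99 in control, 0.39 and 0.55 with poly I:C, and 0.01 and -0.01 with PAM. The groups did not overlap and poly I:C was the higher ligand; Icam1 rose by 3.05 ± 0.20 (limma adjusted p = 0.00159). The death receptor gene Fas had array values of -1.88 and -1.83 in control, -0.02 and 0.02 with poly I:C, and 0.40 and 0.43 with PAM. Here PAM was the higher ligand, and Fas rose by 2.06 ± 0.16 (limma adjusted p = 0.00235). Cflar, which encodes the caspase-8 inhibitor that blocks signals from Fas, rose by 1.81 ± 0.12 (limma adjusted p = 0.00161), and each of its 3 probes rose, by 1.75 to 1.89. Morrbid, a long non-coding RNA known for extending the life of myeloid cells, rose by 1.88 ± 0.13 (limma adjusted p = 0.0018). As a list, the 21 measured cell death and inflammasome genes did not exceed the background. Of these, 2 moved alike higher, Fas and Cflar (9.52%, against 10.7% of all genes), and 2 lower (9.52%, against 15.6%).

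Among transporters and binding proteins, Fabp3, a cytosolic fatty acid binding protein, rose by 3.55 ± 0.09, and both of its probes rose, by 3.50 and 3.60 (limma adjusted p = 0.000224 for the gene). Slc25a37 (mitoferrin), which imports iron into mitochondria, rose by 2.90 ± 0.10, 2.78 with poly I:C and 3.02 with PAM. The organic anion transporter gene Slco3a1 rose by 3.03 ± 0.09 and the copper transporter family gene Slc31a2 by 1.94 ± 0.06. These differences had limma adjusted p of 0.000372, 0.000275 and 0.000275. The orphan receptor gene Gpr141 rose by 3.19 ± 0.10 and Marcksl1, which encodes an actin-associated substrate of protein kinase C, by 3.30 ± 0.22 (limma adjusted p = 0.000275 and 0.00161). The poly I:C arrays of Marcksl1 were apart, with array values of -0.29 and 0.29, against -3.18 and -3.01 in control and 0.45 and 0.37 with PAM. F10, which encodes coagulation factor X, rose by 2.04 ± 0.09 (limma adjusted p = 0.000857). Of the 20 largest increases 16 stayed past the threshold without any 1 array, and the other 4 were Flrt3, Nfkb2, Serping1 and Zmynd15. Flrt3 had an adjusted p of 0.0508 and 0.0517 without control array 1 or 2, and Zmynd15 of 0.0617 and 0.101.

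Genes for amino acid supply were among those moved alike upward, while no chaperone gene of the endoplasmic reticulum on the same list was. ATF4 is the transcription factor that raises amino acid uptake and synthesis when protein synthesis is held back. Of 22 measured genes of the ATF4 and unfolded protein responses, 8 moved alike higher (36.4%, against 10.7% of all genes) and 5 rose past the threshold (1.84% of all genes did). Asparagine synthetase, Asns, had array values of -1.68 and -1.67 in control, -0.02 and 0.07 with poly I:C, and 0.03 and 0.02 with PAM. All 4 treated arrays were nearly level, and Asns rose by 1.70 ± 0.05 (limma adjusted p = 0.000275) with a 95% interval of the difference between the ligands from -0.16 to 0.14. The folate enzyme gene Mthfd2 rose by 1.38 ± 0.07 and Slc7a5, which encodes the large neutral amino acid transporter, by 1.20 ± 0.09 (limma adjusted p = 0.0012 and 0.00207). Atf4 itself rose by 0.63 ± 0.10 and Chac1, a glutathione-degrading enzyme, by 0.67 ± 0.06 (limma adjusted p = 0.0261 and 0.00358). The call of Chac1 ended without control array 2 (0.0572), and that of Atf4 without any array but PAM array 2 (0.0526 to 0.177). Chaperone genes such as Hsp90b1 and Pdia4 had differences of opposite sign with the ligands, -0.77 and 0.35 for Hsp90b1 and -0.65 and 0.77 for Pdia4 (poly I:C, then PAM). The count of 5 fell to 3 without control array 2.

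The phagocyte NADPH oxidase makes superoxide. Its list also holds the exchange factor gene Vav1, which is not a subunit. Of 6 measured genes on this list, 5 moved alike higher (83.3%, against 10.7% of all genes). Past the threshold were 2 (1.84% of all genes rose past it), the subunit gene Ncf4 and Vav1. The gene not moved alike was Rac2, with differences of -0.17 with poly I:C and 0.74 with PAM. The count of 2 members past the threshold was 0 without control array 1, control array 2 or poly I:C array 2 (limma, with 4 at an unadjusted p under 0.05 in each case), and 1 without poly I:C array 1 or PAM array 2. The membrane subunit Cybb had array values of -0.49 and -0.49 in control, -0.02 and 0.02 with poly I:C, and 0.39 and 0.42 with PAM, a difference of 0.69 ± 0.15 that was not past the threshold (limma adjusted p = 0.062). The cytosolic subunit Ncf4 rose by 0.65 ± 0.10 and the exchange factor Vav1 by 0.78 ± 0.15 (limma adjusted p = 0.023 and 0.0375). Both calls ended without control array 1 or 2, with adjusted p of 0.158 and 0.184 for Ncf4 and of 0.19 and 0.268 for Vav1. That of Ncf4 also ended without poly I:C array 2 (0.0588), and that of Vav1 without either poly I:C array or PAM array 2 (0.0666 to 0.0799).

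The largest shared decrease was Cmbl, the gene of a cytosolic hydrolase. Its array values were 3.62 and 3.89 in control, 0.0014 and -0.07 with poly I:C, and -0.24 and -0.0014 with PAM. All 4 treated arrays lay well below both control arrays. Cmbl fell by 3.84 ± 0.11 (limma adjusted p = 0.000275), 14.3-fold, and the 95% interval of the difference between the ligands ran from -0.16 to 0.33. Rasgrp3, an activator of Ras and Rap proteins, had array values of 2.66 and 2.89 in control, -0.38 and -0.14 with poly I:C, and -0.19 and 0.14 with PAM. It fell by 2.92 ± 0.15 (limma adjusted p = 0.00121), with overlapping ranges of the 2 ligands.

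Epas1, which encodes the oxygen-regulated transcription factor HIF-2 alpha, had array values of 2.55 and 2.58 in control, -0.10 and -0.41 with poly I:C, and 0.02 and -0.02 with PAM. Poly I:C array 2 was the lowest, and all 4 treated arrays lay below control. Epas1 fell by 2.69 ± 0.13 (limma adjusted p = 0.000949). Hif1a, which encodes the other main oxygen-regulated alpha subunit, rose by 0.90 ± 0.10 (limma adjusted p = 0.00757), 0.79 with poly I:C and 1.01 with PAM. Pdk1, the kinase that switches off pyruvate dehydrogenase, fell by 1.31 ± 0.16 (limma adjusted p = 0.0102). The calls of Hif1a and Pdk1 ended without control array 1 or 2, with adjusted p of 0.0872 and 0.088 for Hif1a and 0.0704 and 0.122 for Pdk1. The 19 measured genes of glucose uptake and glycolysis as a list were near the background, with 3 moved alike higher (15.8%) and 4 lower (21.1%), and a median difference of 0.07.

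**Figure D4:**
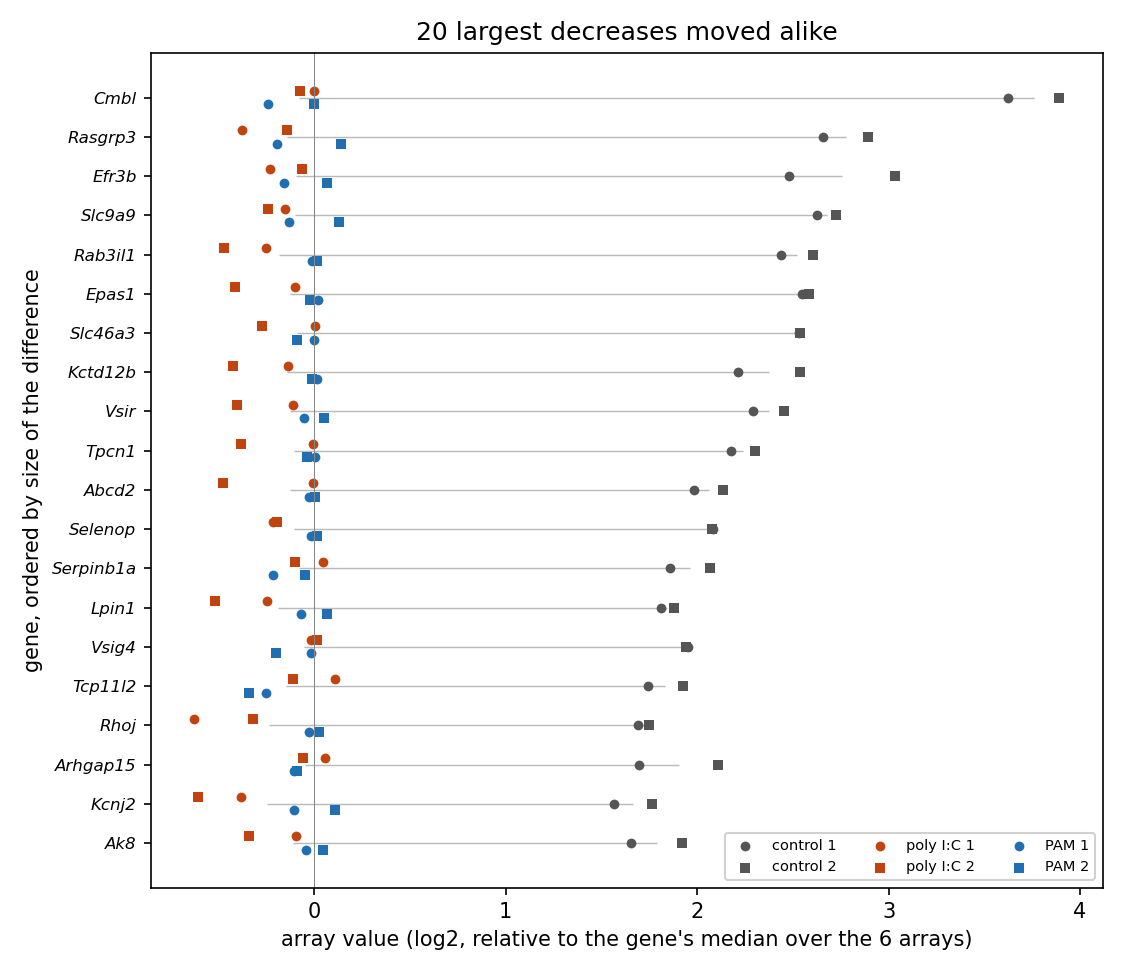
Array values (log2, relative to each gene's median over the 6 arrays, horizontal axis) of the 20 genes with the largest decrease among those moved alike and past the threshold, drawn as in the plot of the increases. In every row both control arrays lie to the right of all 4 treated arrays. Poly I:C array 2 (red squares) is the lowest array in many of the rows, Epas1, Tpcn1, Abcd2, Rab3il1 and Vsir among them.

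Receptors and secreted proteins that macrophages use to take up particles and dying cells were among the shared decreases. Of 20 measured scavenger and apoptotic cell uptake genes, 7 fell past the threshold (4.21% of all genes did). Of the 20, 5 moved alike lower (25%, against 15.6% of all genes). Vsig4, a complement receptor of resident macrophages, had array values of 1.95 and 1.94 in control, -0.02 and 0.02 with poly I:C, and -0.02 and -0.20 with PAM. The treated arrays lay below both control arrays, and Vsig4 fell by 2.00 ± 0.08 (limma adjusted p = 0.000523). Gas6, which bridges phosphatidylserine on dying cells to receptors such as Mertk and Axl, fell by 1.79 ± 0.11 (limma adjusted p = 0.00145). Its array values were 1.88 and 1.58 in control, -0.21 and -0.03 with poly I:C, and -0.03 and 0.03 with PAM, without overlap. The receptors that Gas6 binds did not move alike: the differences were 0.22 and -1.23 for Mertk, and 3.31 and -0.34 for Axl (poly I:C, then PAM). Lrp1, a large endocytic receptor, fell by 1.04 ± 0.18 (limma adjusted p = 0.0286; 0.175 and 0.23 without control array 1 or 2, and 0.0648 without poly I:C array 1), and Colec12 and Cd36 also fell, by 1.04 ± 0.18 and 0.72 ± 0.07 (limma adjusted p = 0.0319 and 0.00566). The call of Colec12 ended without either control array or either PAM array (0.0582 to 0.229) and that of Cd36 without either control array (0.0687 and 0.0764). Of the 20 genes, 6 had a positive difference, and 1 of these moved alike, the macrophage scavenger receptor gene Msr1, with a rise of 0.37 ± 0.05 (limma adjusted p = 0.0137; 0.106 and 0.123 without control array 1 or 2). Without control array 1 or 2, the count of 7 was 2, with 7 members at an unadjusted p under 0.05 in each case. The mannose receptor gene Mrc1 lay outside the limit, at -3.27 with poly I:C and -2.57 with PAM (limma adjusted p = 0.0043 for all treated arrays; 0.0619 and 0.0707 without control array 1 or 2).

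Some genes of other surface proteins were also among the shared decreases, though the share of receptor lists moved alike lower was near the background. Of 29 measured G-protein signalling genes, 4 moved alike lower (13.8%, against 15.6% of all genes). Of 24 pattern recognition genes, 4 moved alike lower (16.7%) and 4 higher (16.7%, against 10.7% of all genes). Past the threshold, 1 of the 29 rose and 4 fell. Of the 24, 6 rose past it and 2 fell past it, against 1.84% and 4.21% of all genes. Clec7a (dectin-1), the receptor for fungal beta-glucan, fell by 1.25 ± 0.09 and the purine receptor gene P2ry1 by 1.67 ± 0.12 (limma adjusted p = 0.00193 and 0.002). Gpr183, the receptor for oxysterols that guides immune cell migration, fell by 1.53 ± 0.09 (limma adjusted p = 0.00137). Vsir, which encodes the inhibitory checkpoint protein VISTA, fell by 2.50 ± 0.14 (limma adjusted p = 0.00122). Of the integrin genes, Itgb5 fell by 1.78 ± 0.10 and Itgb3 by 1.56 ± 0.16, while Itga5, the alpha subunit of the fibronectin receptor, rose by 1.25 ± 0.10. Their limma adjusted p were 0.00137, 0.00566 and 0.00295, and that of Itgb3 was 0.0754 without control array 2. The iron exporter gene Slc40a1 (ferroportin) fell by 1.30 ± 0.09 (limma adjusted p = 0.00189). The chemokine gene Ccl6 fell by 1.54 ± 0.06, the only decrease past the threshold among 37 measured cytokines and chemokines (limma adjusted p = 0.000523). Of those 37, 4 moved alike higher (10.8%), and the list's median absolute difference between the ligands was 1.28.

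Transport proteins of endosomes and lysosomes stood among the 20 largest decreases: the sodium-proton exchanger gene Slc9a9 fell by 2.78 ± 0.11, the lysosomal transporter gene Slc46a3 fell by 2.63 ± 0.09 and the endolysosomal cation channel gene Tpcn1 fell by 2.35 ± 0.13 (limma adjusted p = 0.000558, 0.000372 and 0.00122). Of 30 measured lysosomal hydrolases and proton pump genes, 11 moved alike lower (36.7%, against 15.6% of all genes), 3 moved alike higher and 6 fell past the threshold (4.21% of all genes did). The differences ran from -1.24 to 0.93, with a median of -0.14. Man2b1, lysosomal alpha-mannosidase, had array values of 1.17 and 1.23 in control, 0.05 and -0.07 with poly I:C, and -0.08 and -0.05 with PAM. The groups were well apart, and Man2b1 fell by 1.24 ± 0.06 (limma adjusted p = 0.000989). Lipa (acid lipase) fell by 0.98 ± 0.14 and Glb1 (beta-galactosidase) by 0.52 ± 0.05, while the protease gene Ctsc rose by 0.93 ± 0.09 (limma adjusted p = 0.0165, 0.0058 and 0.00431). These 3 calls ended without control array 1 or 2, with adjusted p between 0.0538 and 0.16. The count of 6 was 1 without either control array, where 8 and 9 members had an unadjusted p under 0.05, and 4 without PAM array 1 or one of the poly I:C arrays.

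Fatty acid oxidation had the largest share of members moved alike downward. This pathway shortens fatty acids in mitochondria and peroxisomes and is active in resting macrophages. Of 21 measured genes, 11 moved alike lower (52.4%, against 15.6% of all genes). Past the threshold 7 fell (4.21% of all genes did), and the median difference was -0.43. Hadha, the alpha subunit of the mitochondrial trifunctional protein, had array values of 0.55 and 0.64 in control, -0.14 and -0.13 with poly I:C, and -0.04 and 0.04 with PAM. The treated arrays lay below control, and poly I:C was the lower ligand. Hadha fell by 0.66 ± 0.07, Ech1 by 0.66 ± 0.09 and Acadm, the medium-chain acyl-CoA dehydrogenase, by 0.69 ± 0.14 (limma adjusted p = 0.00798, 0.0125 and 0.046). Acaa1a, a peroxisomal thiolase gene, moved alike the other way and rose by 0.39 ± 0.06 (limma adjusted p = 0.0209). These small differences rest on every array: the count of 7 was 1 without control array 1, 0 without control array 2 (9 at an unadjusted p under 0.05, limma), and 3 or 4 without one of the treated arrays. Without control array 1 or 2 the adjusted p was 0.0654 and 0.102 for Hadha and 0.0485 and 0.109 for Ech1. The calls of Acadm and Acaa1a ended whichever of the 6 arrays was left out, with adjusted p of 0.0544 or above. When one mean per group was fitted, 16 members fell past the threshold, as did 3285 of all 19935 genes. Larger shared decreases in lipid handling were outside this list: Abcd2, which carries very long chain fatty acids into peroxisomes, fell by 2.19 ± 0.16 and the lipin gene Lpin1 by 2.03 ± 0.16 (limma adjusted p = 0.002 and 0.00267; 0.055 without control array 2 for Lpin1).

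Of 22 measured citric acid cycle genes, 16 had a negative and 6 a positive difference. In this list 7 moved alike lower (31.8%, against 15.6% of all genes), 2 moved alike higher and 1, the succinate dehydrogenase subunit gene Sdhc, fell past the threshold, by 0.44 ± 0.07 (limma adjusted p = 0.0246; 0.0506 to 0.205 without any 1 of the 6 arrays). The median difference was -0.16, and of all genes 4.21% fell past the threshold. The 28 measured genes of the respiratory chain and ATP synthase were close to the background, with 5 moved alike higher (17.9%) and 3 lower (10.7%) and a median difference of 0.00. By limma 0 of the 28 passed the threshold, with 4 higher and 1 lower at an unadjusted p under 0.05. When one mean per group was fitted 5 higher and 4 lower passed, beside 2327 higher and 3285 lower of all 19935 genes.

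Cell cycle and DNA replication genes had the next largest share moved alike downward, with small differences. Of 30 measured, 14 moved alike lower (46.7%, against 15.6% of all genes) and 1 moved alike higher. Past the threshold 5 fell (4.21% of all genes did), and the median difference was -0.17. Pcna, the sliding clamp of DNA polymerase, had array values of 0.72 and 0.82 in control, -0.0048 and 0.0048 with poly I:C, and -0.31 and -0.31 with PAM. The groups did not overlap and PAM was the lower ligand. Pcna fell by 0.92 ± 0.12, and the ribonucleotide reductase genes Rrm1 and Rrm2 by 0.55 ± 0.09 and 0.52 ± 0.07 (limma adjusted p = 0.013, 0.0243 and 0.0118). The count of 5 was 0 without either control array (limma; 12 members without control array 1 and 6 without control array 2 had an unadjusted p under 0.05) and 3 without PAM array 1 or poly I:C array 1. The adjusted p without control array 1 or 2 was 0.103 and 0.15 for Pcna, 0.168 and 0.167 for Rrm1 and 0.11 and 0.107 for Rrm2, and that of Rrm1 was 0.0619 without poly I:C array 1 and 0.0624 without PAM array 1. Mki67, a marker of dividing cells, did not move alike, with differences of -0.16 for poly I:C and 1.65 for PAM.

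Transcription factors of macrophages and of the AP-1, IRF and STAT families were near the background as a list. Of 38 measured, 8 moved alike lower (21.1%, against 15.6% of all genes) and 1 higher (2.63%, against 10.7%). Past the threshold 4 fell (4.21% of all genes did), and the median difference was -0.04. Mef2c had array values of 1.18 and 1.24 in control, -0.29 and -0.31 with poly I:C, and -0.02 and 0.02 with PAM. Its treated arrays lay below control, with poly I:C lowest, and Mef2c fell by 1.36 ± 0.12 (limma adjusted p = 0.00359; 0.0507 and 0.0657 without control array 1 or 2). Cebpa, which is needed for the myeloid lineage, fell by 0.89 ± 0.07 (limma adjusted p = 0.00244), and Jun by 1.00 ± 0.12 (limma adjusted p = 0.00993; 0.0872 and 0.123 without control array 1 or 2). Gata6, the factor that sets the identity of resident peritoneal macrophages, fell by 0.77 ± 0.10 (limma adjusted p = 0.0131; 0.0983 and 0.149 without control array 1 or 2). Of 18 measured genes of resident peritoneal macrophages, 3 moved alike higher (16.7%, against 10.7% of all genes) and 4 lower (22.2%, against 15.6%). The list as a whole had no single direction, and its median difference was 0.21. Without control array 1 or 2, the count of 4 factors past the threshold was 1.

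Of 291 measured microRNA genes, 4 moved alike and passed the threshold, against 5.44% of all genes, and all 4 fell: Mir181b-1, Mir23a, Mir24-2 and Mir568. The array reads RNA from the gene and does not tell the mature microRNA from its precursor. Mir181b-1 fell by 0.95 ± 0.05 (limma adjusted p = 0.00122), and its call held without any 1 array. The other 3 fell by 0.36 (Mir23a), 0.29 (Mir24-2) and 0.32 (Mir568), calls that ended whichever of the 6 arrays was left out (adjusted p 0.0522 to 0.267). The array values of Mir181b-1 were 0.92 and 0.92 in control, -0.04 and -0.09 with poly I:C, and 0.01 and -0.01 with PAM, with the treated arrays all below control. The mature 5p strand (RefSeq, GRCm38.p6, plus strand of chr1:137966650-137966673) is shown with the seed, bases 2 to 8, in capitals because this was the largest of the 4 changes.
mmu-miR-181b-5p: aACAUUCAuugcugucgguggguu
Mir155, whose microRNA is known to rise with Toll-like receptor signals, was higher by 2.28 with poly I:C and by 3.80 with PAM, and so lay outside the limit.

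**Figure D5:**
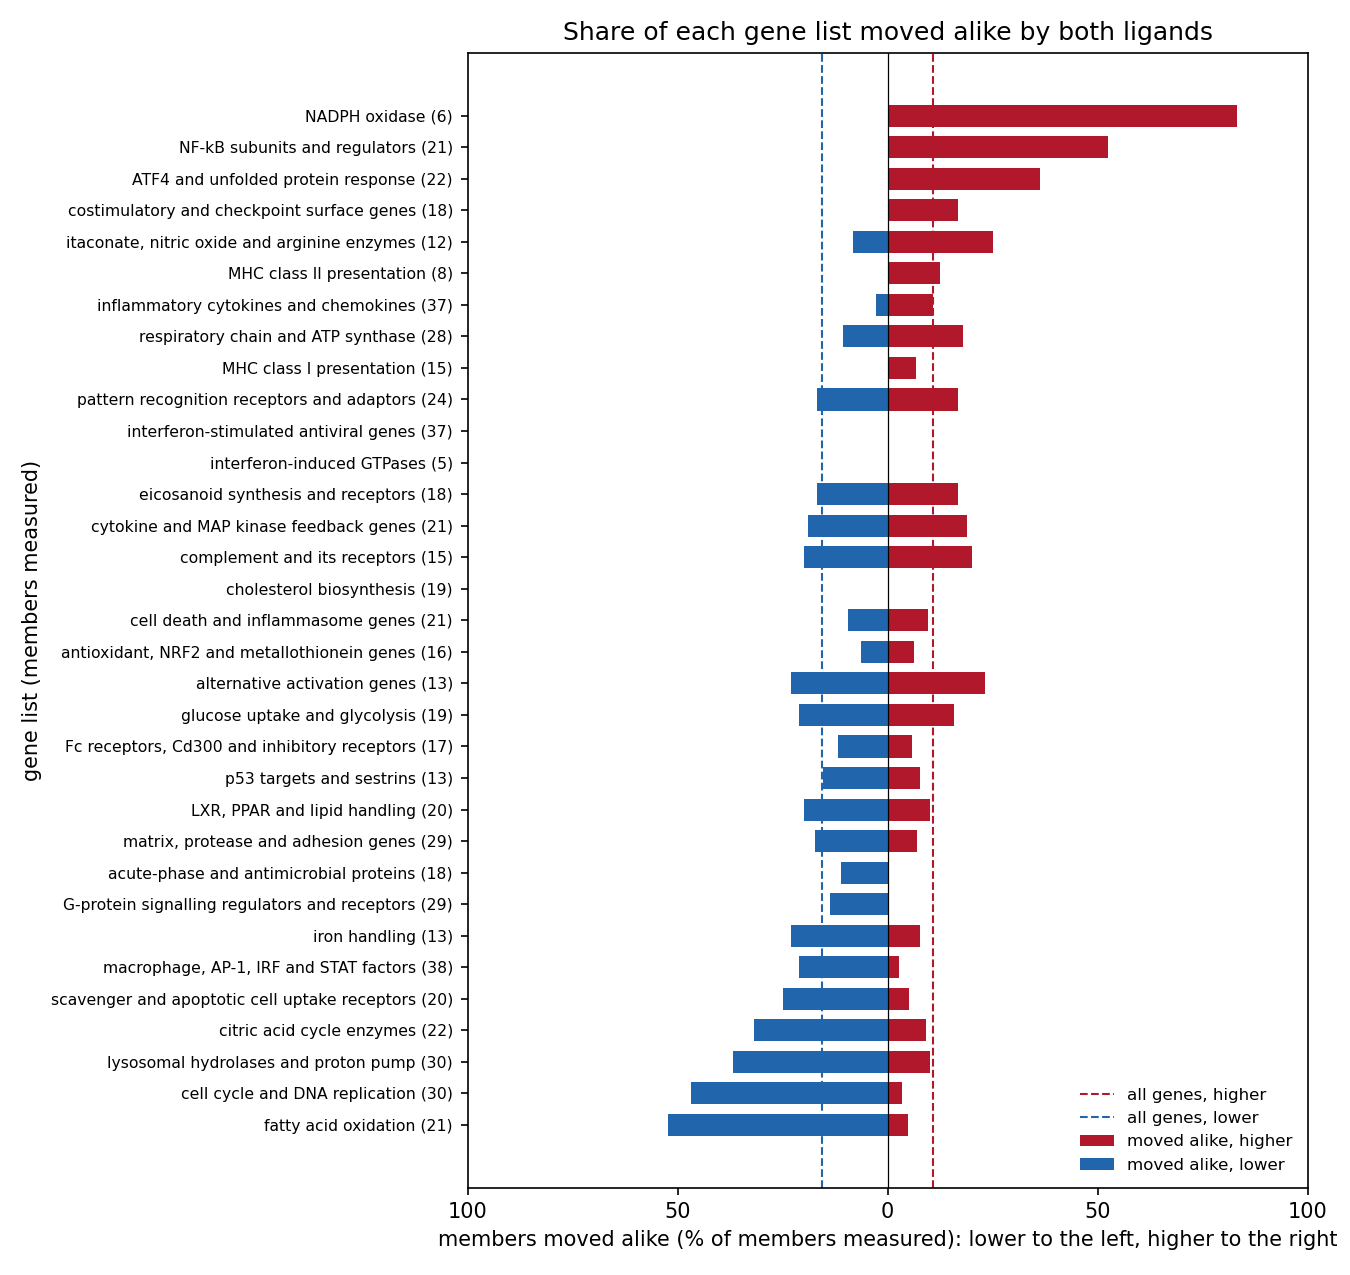
For each of the pathway lists, bars give the percent of measured members (number in brackets) moved alike higher (red, to the right) and lower (blue, to the left) in the treated arrays; dashed lines mark the 10.7% and 15.6% of all genes tested. NADPH oxidase (6 genes), NF-kB (52.4%) and ATF4 (36.4%) stand out to the right, fatty acid oxidation (52.4%) and cell cycle (46.7%) to the left, and interferon-stimulated antiviral and cholesterol genes have no bar.

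Lists with large changes could hold no member moved alike. All 37 measured interferon-stimulated antiviral genes had a positive difference, and in 36 of them the treated arrays lay above both control arrays, as in 2712 of all genes (13.6%). By the rule 0 of the 37 moved alike: the median difference was 3.36 with poly I:C and 1.04 with PAM. For all treated arrays against control 3 of the 37 passed the threshold, where 1.84% of all genes rose past it. All 37 did when one mean per group was fitted, as did 2327 of all 19935 genes. The 5 measured interferon-induced GTPases were also higher on all treated arrays, with medians of 5.20 and 2.12, and none moved alike. All 19 cholesterol biosynthesis genes had a negative difference, with medians of -1.76 and -0.07. In the fit of all treated arrays against control, 0 of the 19 passed the threshold by limma, also at an unadjusted p under 0.05. Of all genes 4.21% fell past the threshold in that fit. All 19 fell when one mean per group was fitted, as did 3285 of all 19935 genes. Some of the largest changes past the threshold also lay outside the limit, though smaller than that of Acod1: Ifi205 was higher by 6.26 and 4.79, AW112010 by 6.23 and 4.94, H2-M2 by 5.12 and 5.96, and Mamdc2 was lower at -4.56 and -3.96 (poly I:C, then PAM). The calls of Ifi205 and AW112010 ended without control array 1 or 2 (limma adjusted p 0.0522 to 0.0751).

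Markers of other cell types that a peritoneal culture could hold were set beside these changes. Over all genes, 10.7% moved alike higher and 15.6% lower, and 4.21% fell past the threshold. Of 11 measured B cell markers 3 moved alike higher and 1 lower, with a median difference of 0.10 over a range from -0.77 to 0.49, and Cd22 fell by 0.77 ± 0.10 (limma adjusted p = 0.0138; 0.0843 and 0.15 without control array 1 or 2). Of 14 T and NK cell markers 3 moved alike higher and 1 lower, with a range from -0.11 to 0.18. Of 14 mesothelial and fibroblast markers 4 moved alike lower (28.6%, against 15.6% of all genes) and 2 fell past the threshold, the median difference was -0.24 and Gpm6a fell by 0.73 ± 0.08 (limma adjusted p = 0.00842; 0.0774 and 0.0533 without control array 1 or 2). Neutrophil markers had a median difference of 0.07 over 14 genes and mast cell markers of 0.02 over 10. By sign of the difference 9 neutrophil markers were higher and 5 lower, and 6 and 8 without control array 2. For mast cell markers the counts were 7 and 3, and 5 and 5 without that array. Of 5 eosinophil markers, Siglecf fell by 1.08 ± 0.12 (limma adjusted p = 0.00733; 0.0723 and 0.103 without control array 1 or 2). The 5 eosinophil markers together had a median difference of 0.03, with 1 moved alike higher and 1 lower, over a range from -1.08 to 0.09. Dendritic cell markers had a median difference of 0.08 over 10 genes, and 4 erythroid and platelet markers of 0.09. Without control array 2, dendritic cell markers went from 6 higher and 4 lower to 4 and 6. The 11 macrophage markers had a median of 0.03, with 1 moved alike. Because the values hold no level, whether a marker was at background cannot be seen, and the part of other cells in the shared changes was not tested.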

How the data were processed

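All 6 arrays were used, 2 each of untreated, poly I:C and PAM macrophages. The authors deposited log2 values in a table of 28815 probes; each probe's median over the 6 arrays is 0 (largest 5e-07), so the authors' values, as deposited, are centred by probe. That the log base is 2 was taken from the range of the values, while summarization and normalization are not given in the sources used. Array medians ran from -0.0049 to 0.0072.

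Of the probes, 21780 carry 1 gene symbol, 1605 several and 5430 none in the platform annotation; 21689 of the first were found in the RefSeq gene table by Entrez ID, with 0 symbols changed. Probes of a gene were averaged, which gave 19935 genes (998 with over 1 probe). Precision is set by how few arrays there are; the median SE of a treated minus control difference was 0.0884 (log2).

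limma 3.58.1 in R 4.3.3 (lmFit and eBayes, Benjamini-Hochberg over all genes, threshold 0.05) was run with the 4 treated arrays as one group (4 residual degrees of freedom) and, for the difference between the ligands with its 95% interval, with one mean per group. Counts of genes moved alike and of list members (760 of 830 listed genes were measured, in 43 lists) had no test. The members and lists were chosen with earlier results of these data known. In simulated data the spread was that of arrays within a group, and each added change was the same for both ligands. There 84% of 100 genes changed 1.5-fold, all 50 changed 2-fold and all 50 changed 4-fold passed, as did 0.0507% of 19735 unchanged genes. Genes on which the ligands differ were not simulated, so these shares do not apply to them. Genes named were the 20 largest increases and 20 largest decreases among genes moved alike and past the threshold, up to 3 such members per list and direction, the 3 genes just inside and 3 just outside the 0.5 limit, and the 3 largest changes per direction outside it. Alternatives were array median-centring, one mean per group, a variance trend, robust variance, the replicate number as a block, fold minimums, other ligand limits, single probes and leaving out each array. Promoter and microRNA sequences came from RefSeq tables (GRCm38.p6). Python 3.11.15, pandas 2.3.3 and matplotlib 3.10.9 were used for counts and plots.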

Additional observations from a re-analysis of the deposited data

Results flagged for a closer look

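In 5 of 117 named genes, 1 of the 4 treated arrays stood apart from the other 3 by more than Dixon's 95% critical value, taken on the gap to the nearest array divided by the range. Chance flags about 1 in 20 groups. The ratio was 0.984 for Nfkbie, 0.893 for Tpcn1 and 0.94 for Abcd2, each through poly I:C array 2. It was 0.858 for Vsig4, through PAM array 2, and 0.895 for Acaa1a, through poly I:C array 2. All 5 of these genes had their treated arrays beyond both control arrays, which the rule that chose them required.

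Of the 40 largest shared changes, 16 also differed between the ligands by limma (adjusted p under 0.05), within the limit of 0.5 that chose them. The poly I:C minus PAM difference (log2) was 0.47 for Icam1 and 0.39 for Flrt3 among the increases, where poly I:C gave the larger rise. PAM gave the larger rise for Slc25a37 (-0.24), Tmem178 (-0.39), Gsap (-0.40), Fas (-0.41), Morrbid (-0.29), Nfkb2 (-0.49), Cflar (-0.29) and Zmynd15 (-0.44). Among the decreases, poly I:C gave the lower value for Rab3il1 (-0.36), Selenop (-0.20), Lpin1 (-0.38), Rhoj (-0.47) and Kcnj2 (-0.49), and PAM for Tcp11l2 (0.30). The ligands were given at different doses, which cannot be told apart from the ligands themselves.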

How the results depend on the processing

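The count of genes past the threshold depended most on the fit and on the control arrays. Against 366 higher and 840 lower genes, one mean per group gave 2327 and 3285, a minimum of 1.5-fold gave 231 and 493, and a minimum of 2-fold gave 131 and 199. Leaving out 1 array gave 72 to 265 higher and 118 to 594 lower genes, the lowest without control array 2. Genes moved alike, 2142 higher and 3116 lower, were 2510 to 5564 and 3376 to 5353 without 1 array, since fewer arrays have to lie apart, and 689 and 1051 with ligand means within 25% of the mean difference. The strong shared genes, 63 higher and 147 lower, were 41 to 69 and 73 to 153 without 1 array, 32 and 83 with ligand means within 0.25, and 111 higher with ligand means within 1. The share moved alike among genes at least 2-fold higher, 15.7%, was 8.11% within 0.25 and 34.2% within 1. That of genes at least 2-fold lower, 49.5%, was 27.9%, 75.1% and, within 25% of the mean difference, 38.7%.

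The replicate numbers were tried as a block, which gave 185 higher and 416 lower genes. The labels do not say what the numbers mark. Deviations of same-numbered arrays had correlations of -0.07 for control and poly I:C, 0.15 for control and PAM, and -0.01 for poly I:C and PAM. Such correlations cannot show whether same-numbered arrays were handled together. With the block, 181 of the 210 strong shared genes passed.

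No named gene changed direction. The balance of higher and lower members did change in some lists of cell type markers without control array 2. Of 117 named genes, 0 lost their call under array median-centring, robust variance or one mean per group, 8 under a variance trend (Acod1, Cfb, Fabp3, Cmbl, Mamdc2, AW112010, H2-M2 and Ifi205; highest adjusted p 0.999) and 24 with the block. The trend is fitted over the mean of centred values, which itself moves with the difference. Without 1 array, 57 of the 117 stayed past the threshold in all 6 fits. A filter on dim probes was not run, and signal over background cannot be judged, because the values hold no level.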
